A study of Rattus norvegicus with 12 samples.

Results

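The genes described here encode the proteins of the cytosolic ribosome, measured in rat left ventricle after a sham operation or a myocardial infarction, with and without diabetes. They were taken as every gene whose platform symbol begins with Rpl or Rps and a number, together with Rplp0, Rplp1 and Rplp2 where measured, leaving out the Rps6k kinases and paralogs whose symbols end in l, l1 or l3. The rule found 44 genes of 14217 with a probe set of their own: 29 of the large subunit, 13 of the small subunit and 2 symbols of pseudogenes, Rpl37-ps2 and Rps4x-ps1. Each was read from its probe set with the highest mean level over all arrays. A further 36 probe sets name a ribosomal protein gene beside other genes and were not used. A filter on dim probe sets kept 41 of the 44 genes, and Rpl28, Rps13 and Rps4x-ps1 fell below it. Their probe sets were dim, with mean levels of 4.80, 4.70 and 4.31 as log2 of the intensity plus 16, which says nothing of how abundant those transcripts are.

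The tissue was the free wall of the left ventricle remote from the infarct, from male Sprague-Dawley rats. At 8 weeks of age the rats received streptozotocin at 65 mg/kg, which destroys insulin-producing beta cells, or citrate buffer as the non-diabetic control, and no group had its blood sugar controlled. After 10 weeks the left anterior descending coronary artery was tied off without reperfusion, or a sham operation was done, and hearts were taken at 1, 7, 14, 28 and 56 days after ligation. By the labels the rats were 18 weeks old on the sham and day 1 arrays, 19 weeks at day 7, 20 weeks at day 14 and 22 weeks at day 28. At day 56 they give 22 weeks for the non-diabetic array and 26 weeks for the diabetic one. The sources used here do not say how long after the sham operation those hearts were taken.

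There were 12 arrays, 2 for each of the 6 time points (1 diabetic and 1 not), and the RNA of 3 rats was pooled for each. No condition therefore had a second array. The spread behind every p-value is the variation of the diabetic effect among time points, which may be technical and is not a spread between rats. The number of arrays limits the precision. Cardiomyocyte markers had a summed intensity of 40835 to 54593 on the 12 arrays, and all 9 measured markers passed the filter. The 4 arrays of days 1 and 7 had a larger 3' minus 5' difference of the beta-actin control probe sets, 0.97 to 0.99 on the log2 scale against 0.37 to 0.59 on the 8 others. The same difference for GAPDH did not set them apart, at 0.32 to 0.36 against 0.11 to 0.48. Nor did the 3' minus middle difference of beta-actin, at 0.33 to 0.70 against 0.39 to 0.62. No batch or scan date was used here. In bulk tissue, fewer cells of a type and less RNA per cell cannot be told apart.

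A ribosome joins a small subunit, which decodes the messenger RNA, to a large subunit, which forms the peptide bond, and cells build both from near-equal numbers of each protein. The messenger RNAs of ribosomal proteins begin with a C followed by a run of pyrimidines, the 5' terminal oligopyrimidine or TOP tract. Through it the growth-signalling kinase mTOR controls how much of them is translated. In heart muscle ribosome production is known to rise during hypertrophic growth, when synthesis of ribosomal RNA and of its processing factors increases.

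The TOP tract was not used to choose the genes. RefSeq promoter sequences of the rat assembly GRCr8 were found for 35 of the 44 genes. At the annotated start, a C followed by 4 pyrimidines stood in 11 of 35 (31.4%), against 2.63% of 33469 rat promoters. A run of at least 8 pyrimidines within 15 bases on either side of the start stood in 23 of 35 (65.7%), against 11.4%. The motif CCGGAAG, on either strand of the 300 bases around the start, stood in 8 of 35 (22.9%), against 8.75%, and AAGATGGC in 4 of 35 (11.4%), against 3.17%. A match is a description of letters, and a start annotated some bases away from the true one moves the tract off the first position.

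The 30 bases around the annotated start are shown for 6 genes, because the first 3 had the low readings of the non-diabetic day 14 array described below and the last 3 did not. Each is written 5′ to 3′ in the sense of the messenger RNA, with its longest pyrimidine run in capitals, and base 16 is the annotated first base.
Rpl5 (chr14:1995211-1995240, minus strand): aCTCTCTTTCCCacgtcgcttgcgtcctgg
Rps3a (chr2:173827028-173827057, minus strand): gagttgtacttccgCCCTTTTggctctcag
Rpl23 (chr10:83272170-83272199, minus strand): actaaCTTCCTTTCTgactctttccggacg
Rplp0 (chr12:46718376-46718405, minus strand): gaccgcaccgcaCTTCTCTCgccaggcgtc
Rps15 (chr7:10068101-10068130, minus strand): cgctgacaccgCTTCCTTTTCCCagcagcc
Rpl13a (chr1:104748899-104748928, minus strand): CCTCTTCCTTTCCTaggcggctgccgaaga
The run was 11 bases in Rpl5, 7 in Rps3a, 10 in Rpl23, 8 in Rplp0, 12 in Rps15 and 14 in Rpl13a. All but Rps3a reach the 8 bases counted above, so both sets of 3 hold genes with such a run. The longest run crosses the annotated start in Rps3a, Rplp0 and Rps15.

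Over the 12 arrays the ribosomal protein genes moved largely together. The median Pearson correlation between 2 of the 41 genes was 0.71 over 820 pairs, and 73.5% of pairs were above 0.5. This describes 12 arrays that the genes share, so any difference in brightness between arrays enters it. Of the 41 genes, 26 correlated above 0.8 with the median of the others. Rpl19 followed that median most closely, at 0.99, and Rpl22, an RNA-binding protein of the large subunit, stood at 0.98. The gene that stood furthest apart was Rps4y2, a relative of the small-subunit gene Rps4x, at -0.26, followed by Rpl37-ps2 at 0.17 and Rpl30 at 0.55. These 3 were also dim, with mean log2 levels of 6.80, 6.06 and 6.16, while the 38 others lay between 10.34 for Rpl39 and 12.59 for Rps29. Levels of different probe sets are not comparable as transcript amounts.

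The members' common level was highest on the diabetic day 14 array and lowest on the non-diabetic day 56 array. For each array the median over the 41 genes of the level minus the gene's own mean over 12 arrays was taken, on the log2 scale. On the non-diabetic arrays it was 0.08 at sham, 0.07 at day 1, 0.10 at day 7, -0.28 at day 14, 0.16 at day 28 and -0.52 at day 56. On the diabetic arrays it was 0.25, 0.20, 0.20, 0.30, -0.22 and -0.18 at the same time points. The values were thus stable from sham to day 7 in both conditions, and the arrays of days 14, 28 and 56 carried most of the spread. On the non-diabetic day 56 array 40 of 41 genes were below their own mean, on the diabetic day 28 array 37, on the diabetic day 56 array 36 and on the non-diabetic day 14 array 31. The residual SD of this median in the model of time and diabetes was 0.22.

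**Figure D1:**
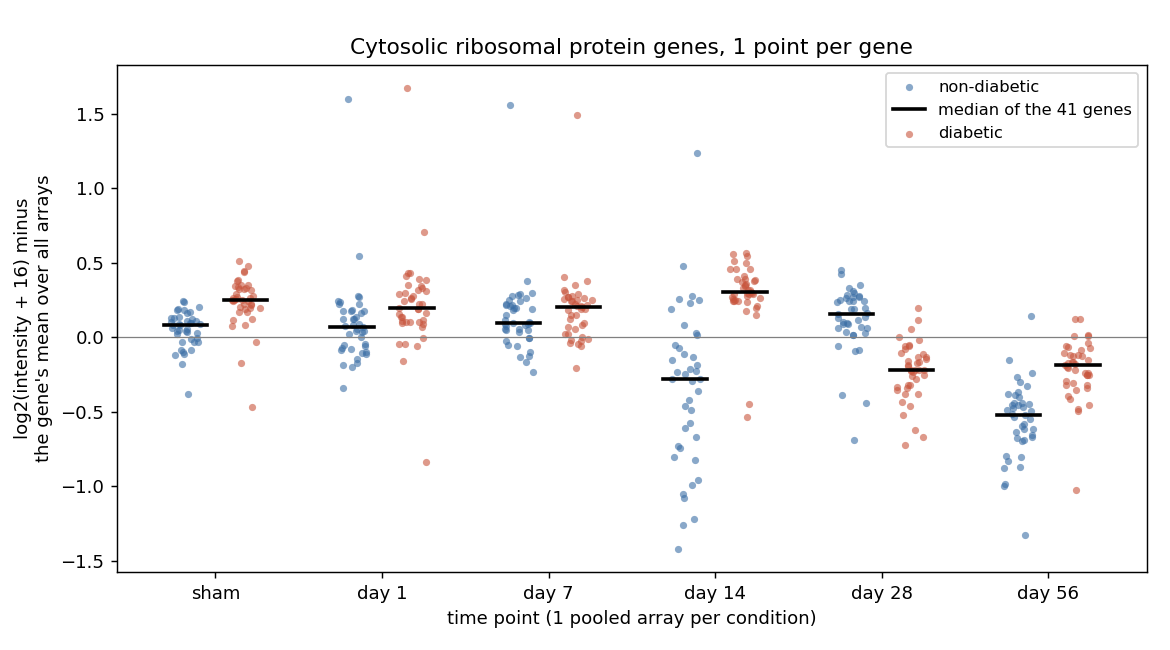
Level of each of the 41 ribosomal protein genes on each of the 12 arrays, as log2 of the intensity plus 16 minus the gene's mean over the arrays, by time point, with non-diabetic arrays in blue and diabetic in red. Black bars are medians, from -0.52 on the non-diabetic day 56 array to 0.30 on the diabetic day 14 array, and the non-diabetic day 14 array has the widest scatter among genes.

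Diabetes was compared with its control over the 6 pairs of arrays, to ask whether diabetic myocardium held more or less ribosomal protein transcript. None of the 41 genes passed limma at an adjusted p of 0.05, in either direction, where 0.376% of the 18625 probe sets tested did. At an unadjusted p under 0.05 there were 6 of 41 (14.6%), near the 10.6% of all probe sets tested. The fitted difference was above 0 for 37 genes and below 0 for 4, with a median of 0.17, while the median of all probe sets tested was 0.01. Large-subunit genes had a median of 0.17 and small-subunit genes 0.18. The median stayed above 0 without any 1 array, from 0.07 without the non-diabetic day 14 array to 0.28 without the non-diabetic day 28 array. Leaving out 1 array of a pair takes the whole time point out of the diabetes estimate. These values therefore speak of the day 14 and day 28 pairs and not of the non-diabetic arrays alone.

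Rpl5, which binds the 5S ribosomal RNA with Rpl11, had the smallest p for diabetes, with a difference of 0.53 (SE 0.18, limma adjusted p = 0.331). Its log2 level on the non-diabetic arrays was 11.75 at sham, 11.83 at day 1, 11.85 at day 7, 10.17 at day 14, 11.20 at day 28 and 11.15 at day 56. On the diabetic arrays it was 12.04, 12.03, 11.94, 11.83, 11.59 and 11.71. Rpl5 was higher in the diabetic array of all 6 pairs, and only Rpl7 of the other members shared that, where 450 of the 18625 probe sets tested did. Rpl23, of the large subunit, differed by 0.44 (SE 0.17, limma adjusted p = 0.377). Rps4y2 had the lowest value, -0.45 (SE 0.16, limma adjusted p = 0.342), being lower in 5 of 6 diabetic arrays. Across members, 25 of 41 were higher in the diabetic array of 5 or 6 of the 6 pairs, where 15.2% of all probe sets tested were.

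The pairs did not agree in size or, at day 28, in direction. At sham 38 of 41 genes were higher in the diabetic array, where 45.7% of all probe sets were, with a median difference of 0.18 on the log2 scale. At day 1 there were 36, where 39.05% of probe sets were, with a median of 0.14, and at day 7 there were 31, where 45.2% were, with a median of 0.06. At day 14 there were 39, where 56.1% were, with a median of 0.60. By over 0.5 there were 24 genes higher, where 25% of all probe sets were. At day 28 only Rpl5, Rpl7 and Rpl37-ps2 were higher, where 45.1% of probe sets were. The median was -0.38, and 11 genes were lower by over 0.5, where 22.4% of all probe sets were. At day 56 there were 39 higher, where 69.0% of probe sets were, with a median of 0.33. By over 0.5 there were 10 genes higher, where 18.7% of all probe sets were. The median of all probe sets in the same pairs ran from -0.09 at day 1 to 0.18 at day 56. With 1 array per condition and time point a single pair has no test.

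A difference between the pairs along time was tested on the 10 ligated arrays as an interaction of diabetes with log2 of the day. No member passed limma, and 0% of all probe sets tested passed. At an unadjusted p under 0.05 there were 0 of 41 members and 4.50% of all probe sets. A turn up, down and up again is no trend with the day, and that test does not read it.

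**Figure D2:**
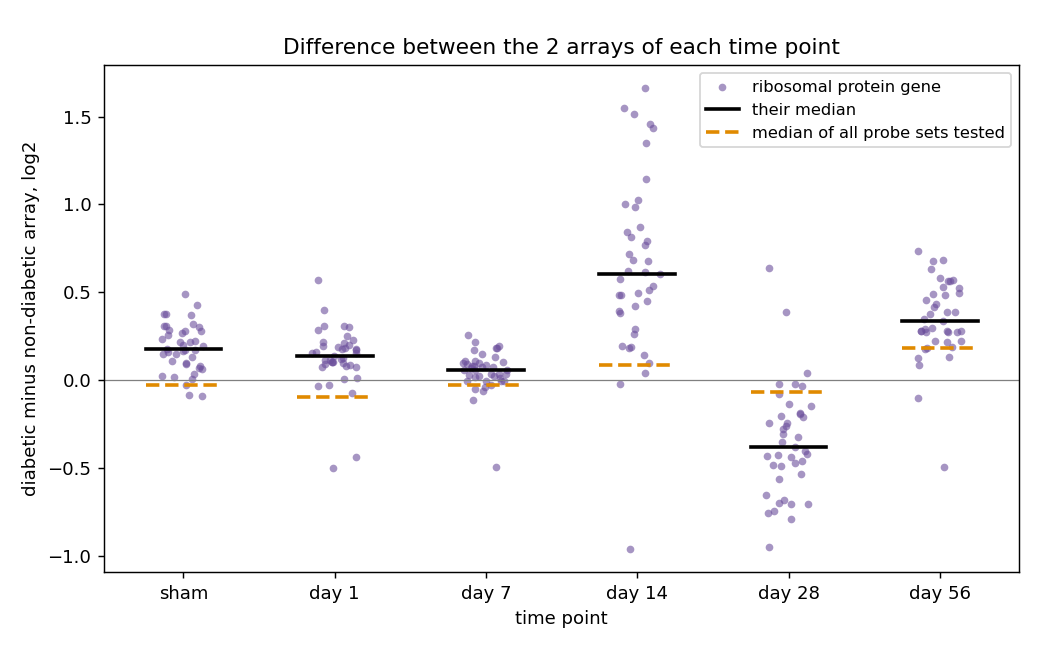
Diabetic minus non-diabetic array at each time point for the 41 ribosomal protein genes, on the log2 scale, with their median as a black bar and the median of all probe sets tested as a dashed bar. The median is 0.60 at day 14, -0.38 at day 28 and 0.33 at day 56.

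Markers of other cells also differed within these pairs. The summed intensity of 9 fibroblast markers was 11041 on the non-diabetic and 20742 on the diabetic day 14 array, 17916 and 7122 at day 28, and 6836 and 10176 at day 56. That of 10 macrophage markers was 4414 and 6672 at day 14, 8565 and 3479 at day 28, and 1085 and 2328 at day 56. At these 3 time points both sums went the same way as the ribosomal protein median, and so they did at day 1, with 6408 and 7337 for fibroblast and 6650 and 7664 for macrophage markers. At sham they did not, with 8650 and 6528 for fibroblast markers and 4893 and 4238 for macrophage markers, nor at day 7, with 25103 and 24404 and with 9299 and 8866. All 9 and all 10 markers passed the filter and none was at 0. Other lists differed: the sums of endothelium, lymphocyte, erythroid and proliferation markers were lower in the diabetic array at days 14, 28 and 56 alike. For endothelium they were 3846 and 2665, 3858 and 3000, and 2891 and 2758. The cardiomyocyte sum was higher at all 3 times. Smooth muscle, skeletal muscle and neutrophil sums followed the ribosomal protein median at only some of them, and the adipocyte sum at all 3. Several of these sums rest partly on dim probe sets. Only 1 of 4 measured adipocyte markers, 5 of 11 proliferation markers and 5 of 8 lymphocyte markers passed the filter. The part of any of these cells in the ribosomal protein values was not tested.

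The low median of the non-diabetic day 14 array came from a share of the genes. Rpl5 read 10.17 there against 11.83 on the diabetic day 14 array, a log2 difference of 1.66. Rpl21, of the large subunit, read 10.23 against 11.78, and Rps3a, of the small subunit, read 10.80 against 12.32. Rpl4, which lines the exit tunnel of the nascent chain, read 10.38 against 11.84. Rps24 read 11.02 against 12.46, Rpl23 read 10.75 against 12.10, Rpl26 read 11.53 against 12.67 and Rps6 read 11.20 against 12.22. For these 8 genes the non-diabetic day 14 array was the lowest of the 12.

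Other members were as high there as at sham. Rplp0, the base of the stalk that recruits elongation factors, read 12.09 on the non-diabetic and 12.27 on the diabetic day 14 array, against 11.78 and 12.08 at sham. Rps15, of the head of the small subunit, read 12.27 and 12.25 against 12.002 and 12.019 at sham. Rpl13a read 11.95 and 12.25 against 11.79 and 11.87, and Rpl27 read 12.03 and 12.22 against 11.94 and 12.09. Rps3, at the entry of the messenger RNA channel, read 11.79 and 11.94 against 11.73 and 11.82. Rps4y2 went the other way, at 8.04 and 7.08 against 6.72 and 6.92. Across the 41 genes the day 14 difference between the conditions had a correlation of 0.63 with that of day 56 and of 0.41 with that of day 28. This is a description across genes, which are not independent replicates.

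At days 1 and 7 the ribosomal protein genes were near their sham levels. The fitted day 1 minus sham difference, over both conditions, had a median of -0.02 for the 41 genes and 0.07 for all probe sets tested. At day 7 the medians were -0.01 and 0.15. Scaling moved the members' medians to between -0.17 and 0.06, on both sides of 0. At day 1, 1 of 41 genes rose by limma, where 4.2% of probe sets tested did. None of the 41 fell, where 3.27% of probe sets did. At day 7 again 1 of 41 rose, where 4.67% did. With array medians set equal, the day 7 calls over all probe sets turned from 870 higher and 554 lower to 615 higher and 769 lower, and by quantile normalization to 423 and 630. At day 1 quantile normalization turned 783 higher and 609 lower into 572 and 685. Both day 1 arrays lay below both sham arrays for 9 of 41 genes, where 25.3% of probe sets did, and above them for 6, where 38.4% did. At day 7 the counts were 11 below, where 23.7% did, and 8 above, where 46.2% did.

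The gene that rose on both days was Rpl30, of the large subunit, and its probe set was one of the dim ones. Its log2 level was 5.77 and 5.69 at sham on the non-diabetic and diabetic arrays, 7.75 and 7.83 at day 1, and 7.71 and 7.65 at day 7. It was 4.90 and 5.71 at day 14, 5.47 and 5.43 at day 28, and 4.83 and 5.13 at day 56. The 4 arrays of days 1 and 7 lay above all 8 others. The fitted difference was 2.06 at day 1 (SE 0.25, limma adjusted p = 0.000936) and 1.95 at day 7 (SE 0.25, limma adjusted p = 0.00139).

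The dimmer probe sets of other members had the same shape while their bright ones did not. Rpl7, of the large subunit, has a bright probe set at 11.80 and 12.11 at sham and 11.68 and 11.86 at day 1. Its dimmer one read 6.41 and 5.74 at sham, 9.56 and 9.64 at day 1, 9.42 and 9.27 at day 7, and 4.88 to 6.16 later. The fitted day 1 difference was -0.19 for the bright and 3.53 for the dimmer probe set. For Rps24 the day 1 differences were -0.19 and 0.73, and the day 7 differences were -0.12 and 0.88. The dimmer probe set of Rpl14, which is below the filter, read 5.66 to 5.89 on the 4 arrays of days 1 and 7 and 4.44 to 4.81 on the others. Rpl3, the fourth gene with another probe set, differed by 0.55 at day 1 in its bright one and 0.07 in its dimmer one.

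Bright and dimmer probe sets parted in this way for 67 of the 2792 genes with several probe sets above the filter (2.40%). This was taken as a signed difference under 0.3 for the brightest one, so that falls count too. On both days the highest difference among the gene's other probe sets had to be over 0.7. Among the members it was 2 of 3, Rpl7 and Rps24, and the dimmer Rps24 probe set, at 0.73 on day 1, was only just over the limit. The limits were not among the settings fixed beforehand, so these shares are a description and no test. These are also the days with the larger 3' minus 5' difference of beta-actin, and its part in these readings was not tested. Rpl30, the only member that rose on either day, is 1 of the 3 members whose mean level was under 9. Leaving these 3 out therefore makes the count 0 by construction, which is no separate evidence.

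**Figure D3:**
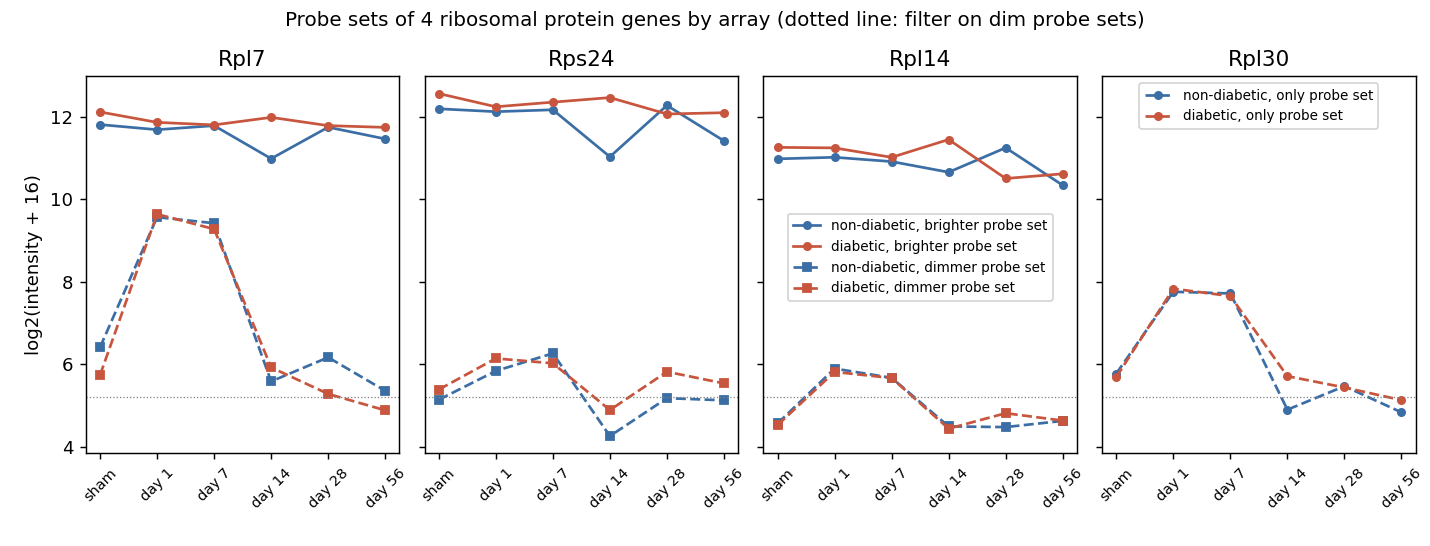
Log2 of the intensity plus 16 for each probe set of Rpl7, Rps24, Rpl14 and Rpl30 on the 12 arrays by time point, non-diabetic in blue and diabetic in red, with the brighter probe set as a solid line and the dimmer or only one dashed. The dimmer Rpl7 probe set reads 9.27 to 9.64 at days 1 and 7 and 4.88 to 6.41 at the other times, while the brighter one stays between 10.98 and 12.11.

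At day 1, when the ribosomal protein genes were near their sham levels, some of the genes for making ribosomes were higher than at sham. Of 71 measured ribosome biogenesis genes 17 rose by limma, against the 4.2% of probe sets above, none fell and 54 did not pass; 68 were above 0, with a median of 0.73. Emg1, a methyltransferase of 18S ribosomal RNA, read 5.77 and 5.30 at sham and 7.89 and 8.23 at day 1, a rise of 2.53 (SE 0.25, limma adjusted p = 0.00022). Rrp12, an export and processing factor of pre-ribosomes, read 5.88 and 5.67 at sham and 7.89 and 8.68 at day 1. Rpf2, which helps to load Rpl5, Rpl11 and 5S ribosomal RNA, read 6.09 and 6.45 at sham and 7.74 and 8.33 at day 1. For each of the 3 both day 1 arrays were above both sham arrays. The others that rose were Taf1d, Polr1e and Polr1b of the RNA polymerase I machinery, Nop56 and Nop58 of the box C/D particles, and Gnl3, Bysl, Wdr12, Noc2l, Tsr1, Bop1, Nip7, Heatr1 and Ddx21.

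The biogenesis count depended on the arrays used. It was 2 without the diabetic day 1 array, 3 without either sham array, 11 without either day 7 array, 30 without either day 28 array and 10 by quantile normalization. The list's median stayed between 0.56 and 0.83 without any 1 array. At day 7 only Emg1 and Taf1d passed. The same 4 early arrays carry the beta-actin difference given above. Immune markers moved at day 1 too: 2 of 4 neutrophil markers above the filter rose, Csf3r by 1.61 and S100a8 by 2.48, and the summed intensity of all 5 was 338 and 209 at sham and 824 and 1912 at day 1. None of 10 macrophage markers passed, with a median of 0.62 and sums of 4893 and 4238 at sham and 6650 and 7664 at day 1. The part of the beta-actin difference and of these markers was not tested.

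Among genes that control ribosome supply, 2 of 36 rose and 2 fell at day 1, shares near the 4.2% and 3.27% of all probe sets tested. Myc, a transcription factor that drives ribosome production, read 5.74 and 5.98 at sham and 7.28 and 8.45 at day 1 and rose by 2.00 (SE 0.35, limma adjusted p = 0.00799). Eef2k, the kinase that brakes elongation, rose by 1.04, while Maf1, a repressor of RNA polymerase III, fell by 1.23 and Sesn1, an inhibitor of mTOR signalling, fell by 1.16. Of 26 initiation factors 3 rose, namely Eif4a1, Eif2s1 and Eif2b3, and of 19 cytosolic aminoacyl-tRNA synthetases 2 rose, Tars1 and Cars1. Both counts were 0 without either sham array or without the diabetic day 1 array; the synthetase count was also 0 without either day 7 array, and 6 without either day 28 array. None of 16 elongation factor and other TOP genes passed limma, with a median of 0.04 and 5 of 16 (31.2%) at an unadjusted p under 0.05, against 25.5% of all probe sets. Outside the rule, 5 related genes were measured: the paralogs Rpl26l1, Rpl3l, Rpl7l1 and Rps27l, and Rpsa, a small-subunit protein whose symbol has no number and which is also among the 16 TOP genes. Rps27l, a p53 target, rose by 2.89 (SE 0.39, limma adjusted p = 0.0018), and at day 7 by 2.72 (limma adjusted p = 0.0026). Its probe set was dim, with a mean of 6.68, and had the shape of the Rpl30 one. It read 8.56 to 8.93 on the 4 arrays of days 1 and 7 and 4.63 to 6.42 on the others. The part of the beta-actin difference in it was not tested. Rpl3l, the striated-muscle counterpart of Rpl3, differed by -0.88 at day 1 (limma adjusted p = 0.0947) and by -0.70 with diabetes (limma adjusted p = 0.174).

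At day 14 none of the 41 genes passed limma, where 0% of probe sets passed. At an unadjusted p under 0.05 there were 5 of 41 (12.2%), near the 11.7% of all probe sets tested. The median difference from sham was -0.10, against 0.00 for all probe sets, and it was -0.34 without the diabetic and 0.13 without the non-diabetic day 14 array. Rpl5 (-0.89), Rpl37-ps2 (-0.92) and Rps4y2 (0.74) had the smallest p, each with a limma adjusted p of 0.402. Both day 14 arrays lay below both sham arrays for 1 gene, where 20.3% of probe sets did. At day 28 none of 41 passed limma, where again 0% of probe sets passed, and 0 members and 3.62% of all probe sets had an unadjusted p under 0.05. All 41 were below 0, with a median of -0.20 against 0.03. That median was -0.53 without the non-diabetic and 0.13 without the diabetic day 28 array, so its sign rests on which array is kept. Rps15 (-0.35), Rpl5 (-0.50) and Rpl37-ps2 (-0.37) had the smallest p, each with a limma adjusted p of 0.999. Both day 28 arrays lay below both sham arrays for 10 genes, where 12.5% did.

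In the fit over both conditions the members' median was lowest at day 56. All 41 genes were below sham in the fit, from -0.92 for Rpl35a to -0.12 for Rps4y2, with a median of -0.50 against -0.12 for all probe sets tested. None passed limma after adjustment, and 0% of all probe sets tested passed. At an unadjusted p under 0.05 there were 21 of 41 (51.2%), against 16.4% of all probe sets. Both day 56 arrays lay below both sham arrays for 38 of 41 genes, the exceptions being Rpl23a, Rps4y2 and Rps9, where 36.3% of probe sets did. The median was -0.53 for the large and -0.46 for the small subunit. It lay between -0.62 and -0.30 over the alternatives tried, and 5 members passed without either day 28 array. The share of all probe sets that passed in those fits is not given here, so that count cannot be read as particular to the members.

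Rps3 had the smallest p, and its log2 level was 11.73 and 11.82 at sham against 10.69 and 11.17 at day 56, a difference of -0.85 (SE 0.23, limma adjusted p = 0.170). Rps15 read 12.002 and 12.019 at sham and 11.18 and 11.31 at day 56 (limma adjusted p = 0.190). Rpl35a, a protein of the large subunit, read 12.03 and 12.05 at sham and 10.85 and 11.38 at day 56 (limma adjusted p = 0.194). In all 3 the arrays of the 2 times did not overlap, and the non-diabetic day 56 array was the lowest of the 12. Rplp0 read 11.78 and 12.08 against 11.42 and 11.61, Rps6, whose phosphorylation is a common readout of mTOR, 12.11 and 12.17 against 11.40 and 11.78, and Rpl11 11.98 and 12.14 against 11.43 and 11.70. The genes with the narrowest range over the 12 arrays were Rps29, Rpl7a and Rpl19, at 0.56, 0.61 and 0.65. The widest were Rpl30, Rps4y2 and Rpl5, at 2.99, 2.08 and 1.86.

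Several other lists were low at day 56, a time at which 69.3% of all genes were below sham. All 16 elongation and other TOP genes were below sham, with a median of -0.48, and 72 of 73 mitochondrial ribosomal protein genes, with a median of -0.52. Of 37 genes of the proteasome list 36 were below sham, with a median of -0.43, and of 71 biogenesis genes 62, with a median of -0.34. Of 26 translation initiation factors 21 were below sham, with a median of -0.27. The proteasome list was drawn by symbol and also holds Psmc3ip, a recombination factor that is no proteasome subunit. The median of all 10623 genes was -0.19. The aminoacyl-tRNA synthetases, with 13 of 19 below sham and a median of -0.10, and the genes that control ribosome supply, with 20 of 36 and a median of -0.05, were not below it. Eef1a2, the elongation factor of muscle, had a difference of 0.74 (limma adjusted p = 0.334). The non-diabetic day 56 array had the lowest macrophage marker sum, 1085 against 2328 to 9299 on the others, and the lowest all-gene median. Neither was tested for a part in the ribosomal protein values.

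**Figure D4:**
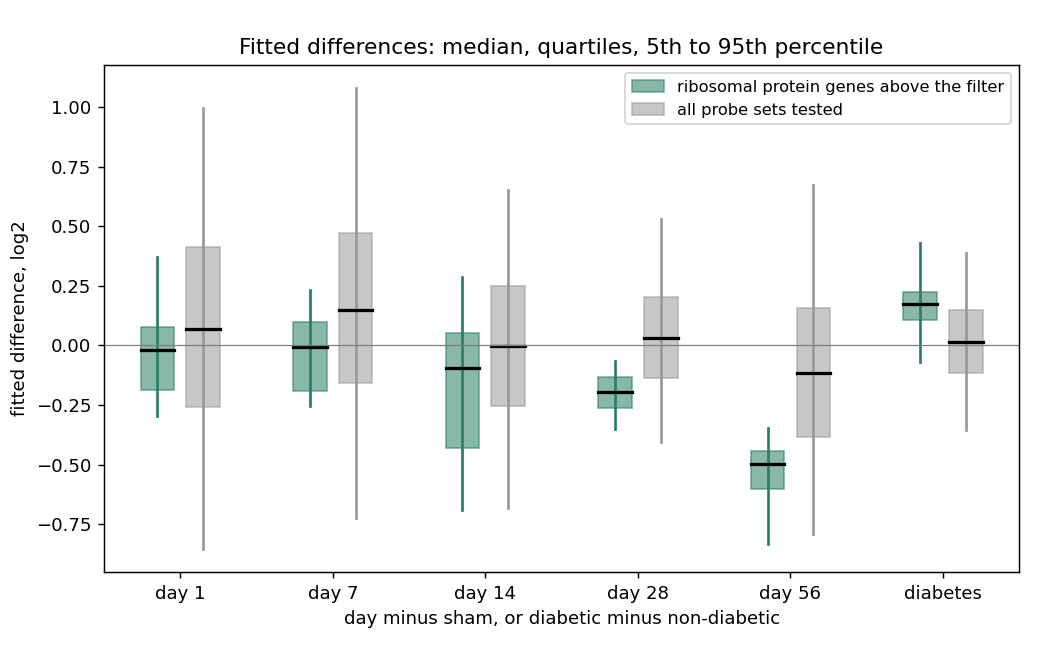
Fitted log2 differences of the 41 ribosomal protein genes, in green, and of all 18625 probe sets tested, in grey, for each day minus sham and for diabetic minus non-diabetic, as median, quartiles and the 5th to 95th percentile. The members' median is -0.02 at day 1 and -0.50 at day 56, and their spread is narrower than that of all probe sets in each comparison shown.

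Over the 5 days after ligation 39 of 41 genes had a slope below 0 on log2 of the day, with a median of -0.08 per doubling of the time, against -0.03 for all probe sets tested. By limma 8 of 41 fell with time, a share near the 18.4% of all probe sets tested that did, and 0 rose, where 10.1% did. Immune markers fell alongside, with 6 of 10 macrophage markers (median slope -0.24) and 3 of 4 neutrophil markers (median slope -0.40), and their part was not tested. By quantile normalization the calls over all probe sets turned from 1879 rising and 3430 falling to 2558 and 2446. The 8 were Rpl30, Rpl18, Rpl3, Rpl35a, Rpl27a, Rpl6 and Rpl11 of the large subunit and Rps23 of the small. Rpl3, which shapes the peptidyl transferase centre, fell by 0.17 per doubling (SE 0.05, limma adjusted p = 0.036). Rpl11, the partner of Rpl5 on 5S ribosomal RNA, fell by 0.09 (SE 0.03, limma adjusted p = 0.0466). Rpl18 read 11.88 and 12.03 at day 1, 11.81 and 11.82 at day 7, 11.85 and 11.89 at day 14, 11.66 and 10.98 at day 28, and 11.02 and 11.10 at day 56, and fell by 0.15 per doubling (SE 0.03, limma adjusted p = 0.00979).

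The count of 8 depended on single arrays and on the early days. It was 1 without the diabetic day 1 or the non-diabetic day 56 array, 2 without the non-diabetic day 1 or the non-diabetic day 7 array, and 4 without either sham array or the diabetic day 7 array. It was 14 without the diabetic day 14 array and 24 without the non-diabetic day 28 array, and 0 without the 4 arrays of days 1 and 7. The share of all probe sets that fell in each fit with arrays left out is not given here. A change particular to the members or lists can therefore not be read from such counts. By the same test 18.4% of all probe sets tested fell with all arrays kept. Of the lists, 50 of 71 biogenesis genes and 18 of 37 genes of the proteasome list (Psmc3ip among them) fell. So did 15 of 73 mitochondrial ribosomal protein genes and 4 of 16 elongation and other TOP genes, shares near that of all probe sets. Without the diabetic day 1 array these counts were 17, 6, 5 and 0, and without the non-diabetic day 56 array 29, 4, 4 and 0. Without the non-diabetic day 1 array they were 5 for the proteasome, 1 for the mitochondrial ribosome and 2 for the TOP list. Without the non-diabetic day 28 array they were 32 for the mitochondrial ribosome and 9 for the TOP list. The mitochondrial count was 9 without either sham array and 8 without the diabetic day 7 array, and the TOP count 7 without the diabetic day 14 array. Eef1b2 of the elongation factor list read 11.25 and 11.34 at day 1 and 9.49 and 10.09 at day 56, and Eef1a2 rose by 0.20 per doubling (SE 0.06, limma adjusted p = 0.0262).

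**Figure D5:**
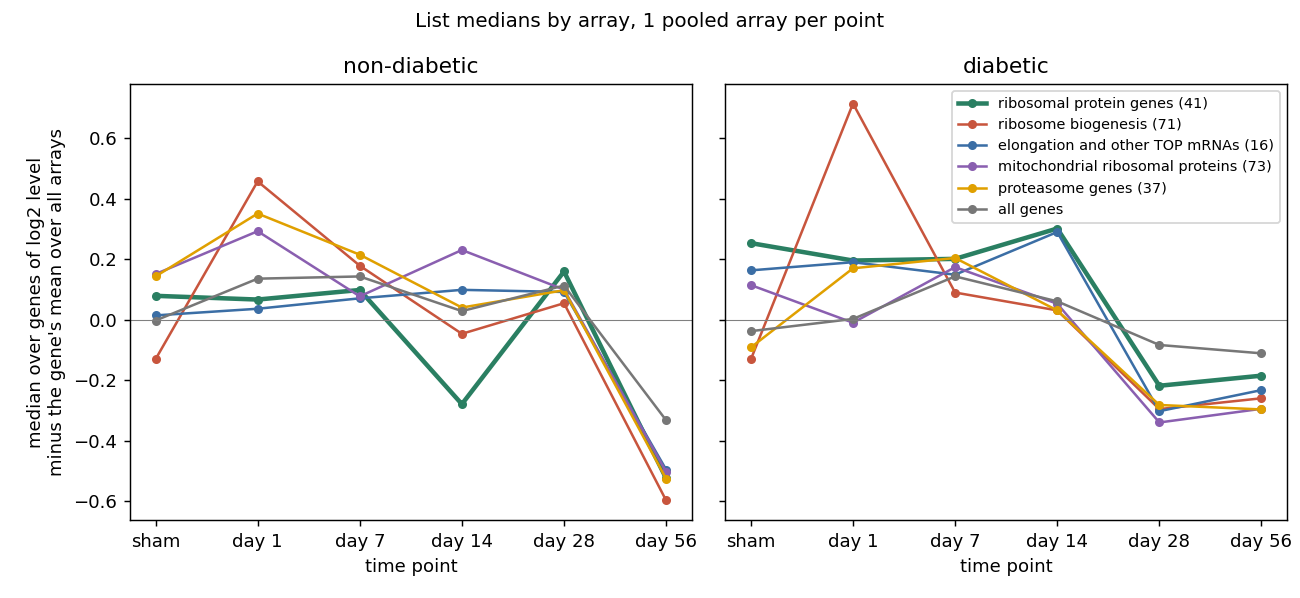
Median over genes of the log2 level minus the gene's mean over 12 arrays, for the ribosomal protein genes, 4 related lists and all genes, by time point, with non-diabetic arrays on the left and diabetic on the right. At day 1 the biogenesis genes stand at 0.46 and 0.71 and the ribosomal protein genes at 0.07 and 0.20; at day 56 all lists are below 0 in both conditions.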

How the data were processed

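The deposited values are linear intensities, 1 for each probe set of an array. Per the submitters' processing notes the authors used Affymetrix Expression Console and PLIER. The sources used here give no version, background correction or scaling. Of 31099 probe sets 57 controls were taken out, and 20826 of the rest had 1 symbol in the platform annotation, 436 several and 9780 were not listed. Values were used as log2(intensity + 16), so changes of dim probe sets are understated. The 18625 probe sets with a mean above the 40th percentile, 5.20, were kept, with no scaling between arrays.

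Groups came from the labels; for the sham arrays, whose tissue label mentions an infarct, the protocol was followed. Time point (6 levels) and diabetes entered 1 linear model of the 12 arrays in limma 3.58.1 in R 4.3.3, with 5 residual degrees of freedom, variances following a trend on the mean, and Benjamini-Hochberg adjustment over the 18625 probe sets at 0.05. It was tested on simulated data. Pearson correlations are over 12 arrays.

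Members and lists were chosen with earlier results of these data known. Named genes are, per comparison, up to 8 members past the threshold in each direction or else the 3 with the smallest p, 16 genes always looked up (7 are not among the 44), and those of widest, narrowest, highest and lowest values. Alternatives were the offset, scaling, filter, probe set rule, variance model and arrays left out.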

Additional observations from a re-analysis of the deposited data

Results flagged for a closer look

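The diabetic minus non-diabetic difference of the ribosomal protein genes turned direction between time points. The median over the 41 genes was 0.604 at day 14, -0.382 at day 28 and 0.334 at day 56 on the log2 scale, with 39, 3 and 39 genes higher in the diabetic array. The difference between these time points was not tested as such, since each has 1 array per condition. The interaction of diabetes with log2 of the day, which reads a steady trend only, called 0 members by limma, with 0 at an unadjusted p under 0.05.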

How the results depend on the processing

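For diabetes the number of members past the threshold was 0 in all 31 alternatives, and their median lay between 0.07 and 0.28. These are not 31 separate checks. Leaving out either array of a time point, or both, leaves the same pairs for the diabetes estimate. The members that passed at day 1 and at day 7 numbered 2 on either day with the median over a gene's probe sets, because Rpl7 then joined Rpl30. The count was 0 without member probe sets under a mean of 9, an alternative chosen after seeing the data. That cut takes out Rpl30 itself, so its outcome was fixed in advance. The slope count was 4 with no variance trend and 0 without the arrays of days 1 and 7, where the median slope was -0.176. Leaving out arrays or pairs gave 0 to 5 members at day 56, 1 to 24 for the slope, medians of -0.34 to 0.13 at day 14 and -0.53 to 0.13 at day 28, and median slopes of -0.15 to -0.039. For counts with arrays left out, the share of all probe sets in the same fit is not given here. For the lists, quantile normalization lowered the falling counts to 10 of the proteasome list and 9 of the mitochondrial ribosome. Rpl30 passed at day 1 and day 7 in all 26 alternatives in which it was tested. No paired analysis beyond the time point factor was possible because each condition and time point has 1 array; without the time factor no member passed for diabetes. The diabetic effect, the day effects and the slope share 1 residual spread from 12 pooled arrays, and dim probe sets are limited by their signal over background.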
